A study of Mus musculus with 19 samples.

Results

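The 60 genes described here were abundant in resting bone marrow monocytes of mice and low in all 3 cell populations taken from inflamed mice. They were selected on measured values. Levels are a gene's share of the reads counted in its library, scaled so that the library sums to 1e+06 (CPM), and a gene was chosen when its mean was at least 100 CPM in both resting groups and, in each of 3 inflamed groups, at most 1/8 of the lower resting mean. Of 50854 genes in the table, 1937 reached 100 CPM in both resting groups and 67 of those met the rule. A fixed list of 10 names was then left out, 7 of which met the rule, so that 60 genes remained, 3.10% of the abundant genes.

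The study sorted monocytes from the bone marrow of REP mice, which carry fluorescent reporters of inflammatory chemokine receptors, into cells with CCR1 and CCR2 (CCR1/2) and cells with CCR2 alone. All mice were female and 8 to 12 weeks old. Resting mice gave 4 CCR1/2 and 4 CCR2 libraries. Inflamed mice, which in the study's methods carried osmotic pumps releasing IL-3, IL-6, GM-CSF and IFN-α under the skin, gave 3 CCR1/2 libraries (replicates 2 to 4), 4 libraries labelled CCR1 and 4 CCR2 libraries. For culture the study gated such resting monocytes as positive for CD11b, high for Ly6C and negative for Ly6G and SiglecF; the antibodies of the sort for RNA are in a supplementary table not used here. The mRNA libraries were made with a low-input kit and sequenced as paired ends. Reads counted on genes ran from 22268658 to 30502009 per library. The labels do not say whether resting and inflamed libraries were prepared or sequenced together, so the state of the mice and any preparation batch cannot be told apart.

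Among the 60 genes are genes for translation factors, chromatin proteins, small GTPases, membrane traffic proteins of the endoplasmic reticulum and Golgi, and subunits of the respiratory chain. The groups by role used below were made by hand after the values were seen. Some of these proteins work in assemblies built from the products of several genes, such as the translation initiation factor eIF3, respiratory complexes III and IV and the heterodimeric receptor for GM-CSF. In the bone marrow, cytokines such as GM-CSF and interferons are known to speed the output of myeloid cells during inflammation.

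The study's methods describe no sort of cells with CCR1 alone, and the titles of the 4 inflamed CCR1 libraries name no cell type. Markers in these libraries go against a monocyte identity. Of 20 monocyte markers 18 had their lowest group mean there, among them Ccr2 at 5.51 CPM, Csf1r at 16.7 CPM and Fn1 at 3.35 CPM, where the other 4 groups held at least 465.5 CPM of each. Cybb and Vcan did not, at 2684 and 18.2 CPM beside 2273 and 16.03 CPM in inflamed CCR2 libraries, and Itgam had 86.0 CPM beside 102.8 to 136.6 CPM in the other groups. Together the monocyte markers summed to 13570, 11520, 13070 and 15420 CPM in these libraries and to 47550 CPM or more in each other library, with Lyz2 the most abundant marker and no marker at 0 in any library. Markers of neutrophils and their precursors, 16 of 17 of which are in the table, summed to 181500, 159500, 168400 and 184700 CPM there. In the other groups that sum was 8418, 12150, 6879 and 7375 CPM (resting CCR1/2), 2206, 3355, 2686 and 2416 CPM (resting CCR2), 4311, 3453 and 3559 CPM (inflamed CCR1/2) and 2220, 2205, 1761 and 1865 CPM (inflamed CCR2). Ngp, Elane, Mpo and Camp led the list in the inflamed CCR1 libraries, at means of 80470, 23390, 19490 and 18690 CPM, and 15 of the 16 markers had their highest group mean there. Mmp8 went the other way, at 8.57 CPM beside 510.0 to 1470 CPM in the other groups. These libraries are called by their label from here on, and values of the 60 genes are given for each inflamed group on its own. Without the inflamed CCR1 group the rule would have chosen 75 genes in place of 60.

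Markers of other cells also differed between groups. The 9 erythroid markers in the table summed to means of 117.5 and 170.8 CPM in resting CCR1/2 and CCR2 libraries and to 3.73, 18.7 and 3.84 CPM in inflamed CCR1/2, CCR1 and CCR2 libraries, with Hbb-bs the most abundant at 59.7 and 81.3 CPM at rest, and with 0 to 6 of the 9 at 0 in an inflamed library. The 8 markers of basophils, mast cells and eosinophils summed to means of 9.04 and 7.03 CPM at rest and to 145.1, 254.3 and 164.5 CPM in inflamed CCR1/2, CCR1 and CCR2 libraries. Prss34 was the most abundant of them, at 4.85 and 4.81 CPM at rest and 129.6, 175.5 and 148.7 CPM, with up to 6 of the 8 at 0 in a resting library. Dendritic cell markers summed to 303.9 and 1557 CPM at rest and to 954.4, 17.0 and 2894 CPM, and T and NK cell markers to 58.6 and 11.6 CPM at rest and to 5.85, 1469 and 3.66 CPM, where Nkg7 made up 1468 CPM in the inflamed CCR1 libraries. Sums for B cell markers were 782.7 and 968.0 CPM at rest and 1161, 604.6 and 1262 CPM. Sums for macrophage markers were 299.5 and 365.2 CPM at rest and 572.2, 466.9 and 588.0 CPM. Of the macrophage sum, Adgre1 made up 209.7 and 326.2 CPM at rest. It made up 536.5, 17.9 and 508.9 CPM in inflamed CCR1/2, CCR1 and CCR2 libraries. None of the 60 genes is on a marker list. The part of other cell types in the levels of the 60 genes was not tested, and in bulk RNA fewer cells of a type and less RNA per cell cannot be told apart.

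The 60 genes together took 1.81, 1.81, 1.87 and 1.88% of the counted reads in resting CCR1/2 libraries and 1.95, 1.95, 2.01 and 1.97% in resting CCR2 libraries. In inflamed libraries they took 0.115, 0.123 and 0.129% (CCR1/2), 0.125, 0.110, 0.106 and 0.0952% (CCR1) and 0.140, 0.121, 0.144 and 0.165% (CCR2). Shares were even among resting libraries, and no inflamed library came near them. Resting against inflamed is the contrast that chose the genes, so these values are a description and nothing is tested with them.

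**Figure D1:**
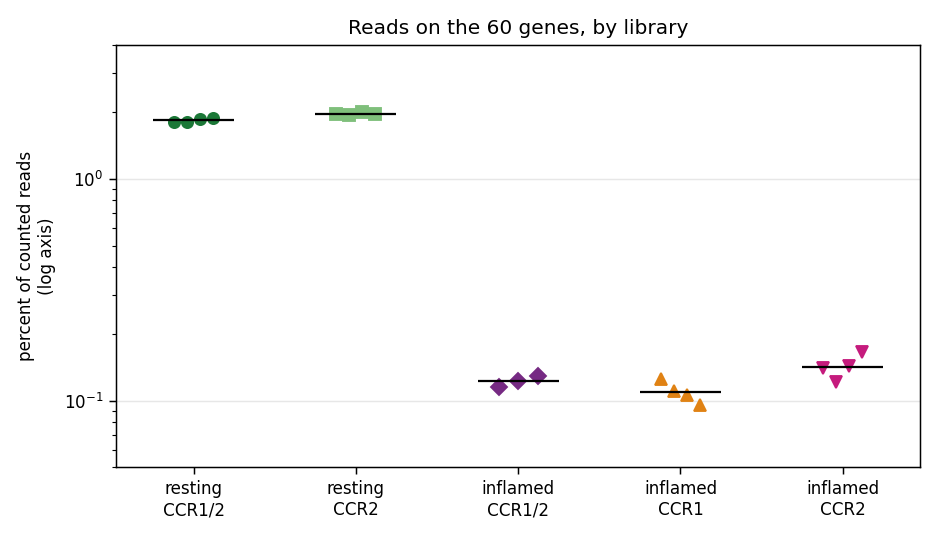
Percent of counted reads on the 60 genes (log axis) in each library, by group, with lines at the group means. The 8 resting libraries sit between 1.81 and 2.01% and the 11 inflamed libraries between 0.0952 and 0.165%.

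In the median of the 60 genes, the highest inflamed mean was 9.21% of the lower resting mean (range 1.86 to 12.4%). This percentage is called the remaining level from here on, and group means are given with ± SD (n = 3 for inflamed CCR1/2, n = 4 otherwise). Among all 1937 abundant genes its median was 119%. It was at most 1/16 in 16 of the 60 genes and at most 1/32 in 2, Rab5if and Sap30. No gap separates the 60 genes from the rest: 103 abundant genes lay between 1/8 and 1/4, 169 between 1/4 and 1/2, 427 between 1/2 and 1, and 1171 above 1. Just inside the threshold were Eif4ebp1 at 12.42%, Eif5 at 12.41% and Tram1 at 12.39%, and just outside were Clta at 12.51%, Mff at 12.60% and Cmpk2 at 12.64%. With the states exchanged, the rule found 1 gene among 1338 genes of at least 100 CPM in all inflamed groups, the basophil and mast cell marker Prss34 named above.

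**Figure D2:**
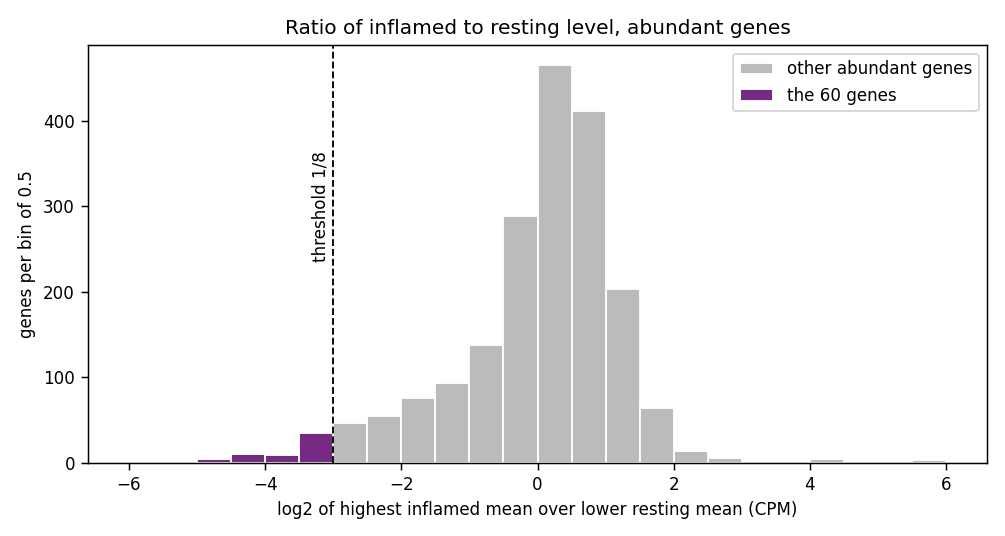
Number of abundant genes (at least 100 CPM in both resting groups) per bin of the log2 ratio of the highest inflamed mean to the lower resting mean. The 60 genes form the left end of 1 continuous distribution, below the dashed threshold of 1/8.

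Each of the 60 genes had reads in each inflamed library, the fewest being 2, for Stxbp6 in inflamed CCR1 replicate 1. The lowest value of any of them in a resting library was 82.2 CPM. Of the 60 genes, 10 had at least 500 CPM in both resting groups and 31 had 100 to 200 CPM in the lower group. Replicates differed less at rest than in the inflamed groups: the median coefficient of variation over the 60 genes was 6.53% and 5.42% in resting CCR1/2 and CCR2 libraries and 12.7, 16.5 and 17.3% in inflamed CCR1/2, CCR1 and CCR2 libraries, with values up to 58.7% for Eif4ebp1 in CCR1/2 and 57.6% for Stxbp6 in CCR1 libraries. The other abundant genes had medians of 5.71 and 6.15% at rest and 9.10, 8.53 and 12.2% in the inflamed groups.

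**Figure D3:**
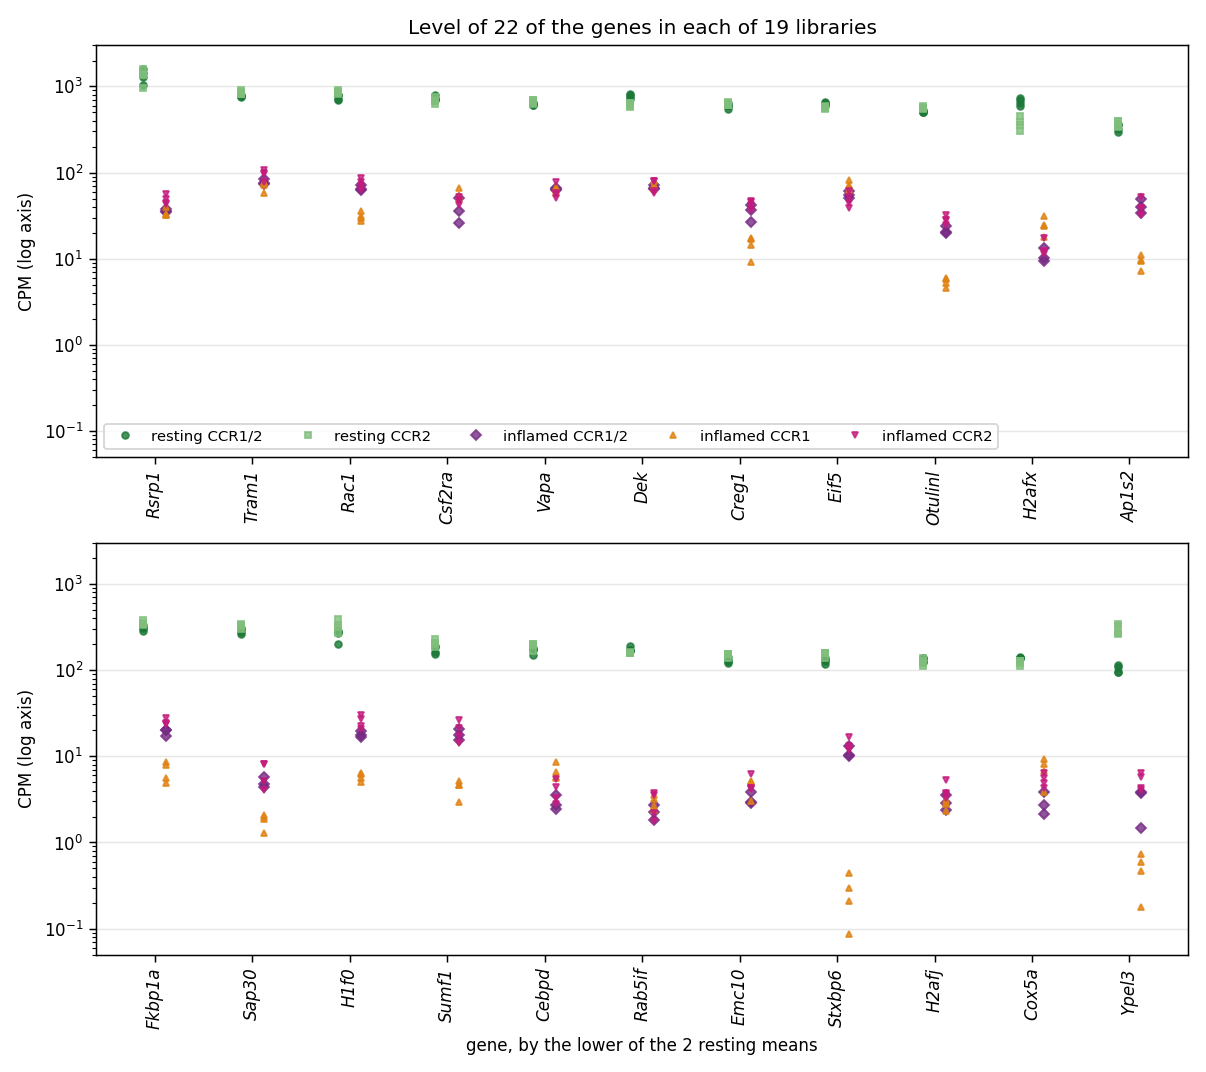
CPM (log axis) of 22 of the 60 genes, those taken by level, by remaining level or by a test, in each of 19 libraries, ordered by the lower resting mean, resting libraries left and inflamed libraries right of each gene's tick. All inflamed points of each gene shown lie below all its resting points. Stxbp6 and Ypel3 are below 1 CPM in the inflamed CCR1 libraries.

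Genes for translation and RNA proteins, with a gene annotated as a microRNA, made up 8 of the 60 genes. Rsrp1 (ENSMUSG00000037266), which encodes an arginine- and serine-rich protein, took the most reads of the 60 at rest and measured 1586, 1443, 1274 and 1042 CPM in resting CCR1/2 and 1609, 1343, 1391 and 951 CPM in resting CCR2 libraries. Inflamed libraries held 37.4, 34.5 and 35.7 CPM (CCR1/2), 40.0, 33.4, 32.3 and 31.9 CPM (CCR1) and 44.4, 49.6, 43.5 and 56.3 CPM (CCR2). At rest it was also the most variable of the 60 between replicates, with coefficients of variation of 17.5 and 20.7%, and its replicate 4 was the lowest in both resting groups. All 11 inflamed values lay between 31.9 and 56.3 CPM.

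Eif5 (ENSMUSG00000021282), which triggers GTP hydrolysis by eIF2 at the start codon, measured 618, 639.7, 595 and 663 CPM in resting CCR1/2 and 550.3, 568, 577 and 595 CPM in resting CCR2 libraries. Inflamed values were 61.2, 54.2 and 50.0 CPM (CCR1/2), 82.3, 71.7, 67.6 and 62.7 CPM (CCR1) and 52.0, 38.7, 44.1 and 61.6 CPM (CCR2). All 4 inflamed CCR1 libraries were above all other inflamed libraries for this gene. Eif3f, a subunit of eIF3, had means of 326 ± 27.1 and 415 ± 21.7 CPM at rest (CCR1/2, then CCR2) and of 24.2 ± 1.61, 19.8 ± 1.90 and 30.5 ± 6.69 CPM in inflamed CCR1/2, CCR1 and CCR2 libraries. Eif4ebp1, the repressor of the cap-binding protein eIF4E, went from 196 ± 14.0 and 220.5 ± 12.4 to 15.4 ± 9.06, 24.4 ± 8.39 and 21.8 ± 5.21 CPM in the same order. Ybx1, a cold-shock domain protein that binds mRNA, went from 548 ± 40.4 and 802 ± 95.5 to 53.0 ± 2.54, 64.7 ± 9.49 and 55.8 ± 9.12 CPM. The remaining levels of these 4 ran from 9.34% for Eif3f to 12.4% for Eif4ebp1, and Rsrp1 had 3.66%. The rule caps this level at 1/8, so nothing is read from how close the 4 values are. The others of this group were Rbm38, an RNA-binding protein, Rbfa, a factor in mitochondrial ribosome assembly, and Gm23935, annotated as a microRNA gene of 57 bases, with remaining levels of 6.23%, 8.71% and 5.44%.

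The other genes of eIF3 had higher remaining levels than Eif3f. Those of at least 100 CPM in both resting groups lie above 1/8 by the rule, so nothing is read from the direction. Eif3b, Eif3d and Eif3i were below 100 CPM in a resting group, and the rule did not bind them. The median of all abundant genes was 119%. Of 12 eIF3 subunit genes with at least 10 CPM in both resting groups, the 11 others had remaining levels of 63.5 to 155%, Eif4ebp2, the relative of Eif4ebp1, had 120%, and Ybx3, the relative of Ybx1, had 73.0%. With library totals adjusted by TMM or RLE factors, the levels of inflamed libraries shift up by 0.23 (log2) against resting ones. That shift moves Eif3e from 89.7 to 112% and Eif3h from 96.2 to 107%, and it moves Eif3f from 9.34 to 11.2%.

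Many of the 60 genes depend on the scaling: with TMM factors the rule chooses 37 of them and 23 no longer meet it. In 19 of the 23 the remaining level passes 1/8, at 15.4% for Ap1s2, 15.04% for Eif4ebp1, 14.97% for Tram1, 14.8% for Plekhf2, 14.4% for Ybx1 and for Atp1b3, 13.8% for Eif5, 13.7% for Sumf1, 13.4% for Slc1a5 and for Rab5a, 13.3% for Saraf, 13.1% for Dek, 13.02% for Polr2m, 12.9% for Ppp3r1, 12.8% for H13 and for Arf5, and 12.7% for Vapa, Stxbp6 and Man1a. In 6 of the 23 the lower resting mean is under 100 CPM, among them Ypel3, Rcn2, Rbm38, Saraf and Rab5a. RLE factors lose 24 of the 60, and 22 are lost with both.

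Chromatin and transcription proteins made up 9 of the 60. H2afx (ENSMUSG00000049932) encodes the histone H2A variant that is phosphorylated at DNA breaks. It measured 597, 643, 693 and 737 CPM in resting CCR1/2 and 360.3, 457, 382 and 304 CPM in resting CCR2 libraries. Inflamed values were 10.1, 9.47 and 13.5 CPM (CCR1/2), 31.1, 24.7, 24.2 and 17.9 CPM (CCR1) and 17.2, 11.4, 12.0 and 12.4 CPM (CCR2). The resting CCR1/2 libraries were the highest, and in the inflamed mice the CCR1 libraries were above both other groups.

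H2afj (ENSMUSG00000060032), another H2A variant, measured 139, 140.4, 125 and 124 CPM in resting CCR1/2 and 120.1, 138, 129 and 112 CPM in resting CCR2 libraries. Inflamed values were 2.89, 2.38 and 3.52 CPM (CCR1/2), 3.14, 2.35, 2.78 and 2.90 CPM (CCR1) and 3.71, 3.29, 3.68 and 5.32 CPM (CCR2). In inflamed mice all CCR2 libraries were above all CCR1 libraries, and the CCR1/2 libraries overlapped both. H1f0, a linker histone, had means of 258 ± 38.3 and 330.2 ± 51.04 CPM at rest and 18.0 ± 1.53, 5.83 ± 0.673 and 25.3 ± 4.36 CPM in inflamed CCR1/2, CCR1 and CCR2 libraries. Its relatives Hist1h1c and Hist1h1b had remaining levels of 33.7 and 210.3%. Both were much lower than H1f0 in resting CCR1/2 and CCR2 libraries, at 15.4 and 13.0 CPM (Hist1h1c) and 33.2 and 13.0 CPM (Hist1h1b). Other H2A variant genes of at least 10 CPM had remaining levels of 170% (H2afz), 55.7% (H2afy) and 25.5% (H2afv), and with TMM factors these were 190, 63.5 and 28.5%. The level of H2afv rests on the inflamed CCR1 mean, 61.9 CPM. Inflamed CCR1/2 and CCR2 libraries held 21.3 and 26.0 CPM of it, beside 413.6 and 242.4 CPM in resting CCR1/2 and CCR2 libraries. In CPM, both of these inflamed means were within the limit of the rule.

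Dek (ENSMUSG00000021377), a chromatin protein that binds DNA and histones, measured 707, 823, 754 and 788 CPM in resting CCR1/2 and 646, 634, 592 and 570.3 CPM in resting CCR2 libraries. Inflamed values were 72.2, 65.4 and 64.4 CPM (CCR1/2), 79.5, 71.6, 65.0 and 70.3 CPM (CCR1) and 78.8, 57.4, 61.6 and 80.4 CPM (CCR2). The resting groups did not overlap, with CCR1/2 above CCR2, while the inflamed groups lay within 1 range. Sap30 (ENSMUSG00000031609), a subunit of the Sin3 histone deacetylase complex, measured 298, 266, 278 and 307 CPM in resting CCR1/2 and 337, 329, 301 and 340.0 CPM in resting CCR2 libraries. Inflamed values were 4.36, 4.80 and 5.77 CPM (CCR1/2), 2.09, 1.28, 1.98 and 1.88 CPM (CCR1) and 4.12, 5.11, 8.20 and 8.25 CPM (CCR2). Sap30 kept 2.23%, next to the lowest of the 60, and its 4 inflamed CCR1 libraries were below all other libraries. Of 6 other genes of that complex, Hdac1 had a remaining level of 301%, Sap130 259%, Sin3a 126%, Sin3b 107%, Suds3 84.4% and Hdac2 30.4%, and Suds3 passes 100% with TMM factors, at 107%. For Sin3a only the inflamed CCR1 mean, 67.6 CPM, was above the lower resting mean of 53.7 CPM. Inflamed CCR1/2 and CCR2 libraries held 44.5 and 46.6 CPM of it.

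Cebpd (ENSMUSG00000071637), a C/EBP transcription factor of myeloid cells, measured 172, 177, 182 and 152 CPM in resting CCR1/2 and 202, 202, 195 and 169 CPM in resting CCR2 libraries. Inflamed values were 2.71, 2.47 and 3.52 CPM (CCR1/2), 8.62, 6.60, 5.78 and 5.67 CPM (CCR1) and 2.80, 3.29, 4.43 and 5.44 CPM (CCR2). Each inflamed library was under 1/8 of each resting one. Here the family was low as well: Cebpg had a remaining level of 16.9%, Cebpb 25.7% and Cebpa 32.4%, while Cebpz had 138%, and all 4 stay on the same side of 100% with TMM factors. Maf1, the repressor of RNA polymerase III, Polr2m and Ypel3 complete the group, with remaining levels of 10.1%, 10.8% and 4.98%. Ypel2 and Ypel5 had 67.2 and 136%. For Ypel5 only the inflamed CCR1 mean, 242.0 CPM, was above the lower resting mean of 178.3 CPM. Inflamed CCR1/2 and CCR2 libraries held 166.6 and 169.4 CPM of it.

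Promoters are shown for 4 of the 60 genes, a pair with many resting reads (Rsrp1 and Csf2ra) and the pair with the lowest remaining level (Rab5if and Sap30), because these genes were low together in inflamed libraries. The sequences are from RefSeq on build GRCm38.p6, run 5′ to 3′ on the gene's strand from 250 bases before to 50 bases after the annotated start, and capitals mark the GC box (GGGCGG on either strand). Rsrp1 is on the + strand at chr4:134923375-134923674, Csf2ra on the - strand at chr19:61228369-61228668, Rab5if on the + strand at chr2:156862872-156863171 and Sap30 on the - strand at chr8:57487811-57488110.
Rsrp1: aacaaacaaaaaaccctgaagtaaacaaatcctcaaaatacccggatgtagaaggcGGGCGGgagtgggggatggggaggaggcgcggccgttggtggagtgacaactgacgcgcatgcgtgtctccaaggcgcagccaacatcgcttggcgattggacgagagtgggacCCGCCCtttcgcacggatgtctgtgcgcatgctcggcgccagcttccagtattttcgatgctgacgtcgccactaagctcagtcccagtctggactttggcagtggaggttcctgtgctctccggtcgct
Csf2ra: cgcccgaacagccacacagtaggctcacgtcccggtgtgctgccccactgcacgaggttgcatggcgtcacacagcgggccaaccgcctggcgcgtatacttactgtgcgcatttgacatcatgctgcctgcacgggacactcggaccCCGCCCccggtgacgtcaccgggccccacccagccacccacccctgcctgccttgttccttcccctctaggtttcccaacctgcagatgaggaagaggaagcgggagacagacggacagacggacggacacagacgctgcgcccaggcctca
Rab5if: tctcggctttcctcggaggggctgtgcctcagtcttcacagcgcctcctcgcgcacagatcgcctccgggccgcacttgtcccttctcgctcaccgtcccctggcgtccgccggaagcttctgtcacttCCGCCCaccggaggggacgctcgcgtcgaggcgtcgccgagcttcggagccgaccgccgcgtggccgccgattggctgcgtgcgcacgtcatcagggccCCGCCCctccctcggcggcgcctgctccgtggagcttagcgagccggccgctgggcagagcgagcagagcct
Sap30: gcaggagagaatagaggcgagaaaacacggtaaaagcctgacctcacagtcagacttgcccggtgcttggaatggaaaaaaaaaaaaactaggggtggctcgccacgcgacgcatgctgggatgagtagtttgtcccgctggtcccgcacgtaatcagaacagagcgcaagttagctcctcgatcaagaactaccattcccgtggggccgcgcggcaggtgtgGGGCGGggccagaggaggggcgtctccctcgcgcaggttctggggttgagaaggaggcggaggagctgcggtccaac
Rsrp1 and Rab5if each held 2 GC boxes, and Csf2ra and Sap30 held 1 each. Over the set the motif check is void, because RefSeq promoters were matched for 42 of the 60 genes, under the 80% needed. The motif occurred in 35.7% of all 32851 promoters of that length and in 62.4% of 1917 promoters of other abundant genes. Nothing is concluded from it. A match describes letters in a window and was not tested as a binding site.

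Small GTPases and their partners made up 9 of the 60. Rac1 (ENSMUSG00000001847), which drives actin remodelling at the cell edge, measured 707, 689, 804 and 799 CPM in resting CCR1/2 and 870.1, 810.0, 906 and 853 CPM in resting CCR2 libraries. Inflamed values were 64.3, 72.0 and 63.2 CPM (CCR1/2), 35.4, 27.7, 29.9 and 31.4 CPM (CCR1) and 70.4, 62.2, 78.0 and 86.2 CPM (CCR2). All inflamed CCR1 libraries were below all other libraries. Rac2, its relative in blood cells, had 1055 and 1033 CPM at rest and 1745, 3489 and 1523 CPM in inflamed CCR1/2, CCR1 and CCR2 libraries.

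Endosome and Golgi GTPases were set beside their relatives. Rab5c, Rab11b and Arf1 had at least 100 CPM in both resting groups. By the rule they lie above 1/8, so nothing is read from the direction. Rab5b, Arf2, Arf3 and Arf6 were below 100 CPM in a resting group, and the rule did not bind them. The median remaining level of all abundant genes was 119%. Rab5a, which acts on early endosomes, went from 100.4 ± 14.6 and 159.8 ± 19.6 CPM at rest to 9.84 ± 1.24, 5.75 ± 1.29 and 11.3 ± 3.30 CPM in inflamed CCR1/2, CCR1 and CCR2 libraries, while Rab5b and Rab5c had remaining levels of 230 and 302%. Rab11a, of recycling endosomes, went from 170.1 ± 5.83 and 177 ± 9.25 to 10.4 ± 1.11, 12.9 ± 2.97 and 12.9 ± 1.93 CPM, and Rab11b had a remaining level of 150%. Arf5, a Golgi GTPase, went from 274 ± 14.6 and 349 ± 15.1 to 21.2 ± 4.07, 18.6 ± 2.40 and 29.1 ± 5.75 CPM, and Arf1, Arf2, Arf3 and Arf6 had 163, 164, 179 and 64.3%. These relatives stay on the same side of 100% with TMM factors.

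Rab5if (ENSMUSG00000027637), named for an interaction with Rab5, had the lowest remaining level of the 60, 1.86%. It measured 171, 170.1, 167 and 194 CPM in resting CCR1/2 and 157, 159, 158 and 164 CPM in resting CCR2 libraries. Inflamed values were 1.82, 2.69 and 2.25 CPM (CCR1/2), 2.66, 3.23, 3.59 and 2.39 CPM (CCR1) and 2.22, 1.78, 3.72 and 3.57 CPM (CCR2). Its inflamed groups overlapped. Rheb, the activator of mTORC1, Arhgap9, a GTPase-activating protein of blood cells, Cdc42ep3, an effector of Cdc42, and Fnta, the alpha subunit of protein farnesyltransferase, had remaining levels of 8.87%, 5.13%, 9.25% and 8.87%.

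Proteins of the endoplasmic reticulum, Golgi and endosomes or of lipid and vesicle traffic were the largest group, 19 of the 60. Tram1 (ENSMUSG00000025935), which helps nascent chains enter the endoplasmic reticulum, measured 755, 768, 799 and 766 CPM in resting CCR1/2 and 826, 826, 857 and 921 CPM in resting CCR2 libraries. Inflamed values were 72.9, 76.5 and 85.0 CPM (CCR1/2), 77.6, 72.1, 76.2 and 58.7 CPM (CCR1) and 95.5, 78.8, 99.8 and 108 CPM (CCR2). In inflamed mice the CCR1/2 libraries overlapped both other groups, all CCR2 libraries were above all CCR1 libraries, and the gene lies just inside the threshold.

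Vapa (ENSMUSG00000024091), a tether between the endoplasmic reticulum and other membranes, measured 614, 614, 648 and 639 CPM in resting CCR1/2 and 639, 619, 690.4 and 689.6 CPM in resting CCR2 libraries. Inflamed values were 65.8, 62.3 and 64.3 CPM (CCR1/2), 68.0, 64.6, 61.7 and 58.2 CPM (CCR1) and 57.1, 51.3, 58.2 and 77.4 CPM (CCR2). Of the genes followed in each library it was among the most even across the 3 inflamed groups. Its relative Vapb had a remaining level of 22.8%, and 27.4% with TMM factors.

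Creg1 (ENSMUSG00000040713), a glycoprotein of the endosome and lysosome system, measured 605, 540.5, 637 and 589.8 CPM in resting CCR1/2 and 648, 611, 654 and 615 CPM in resting CCR2 libraries. Inflamed values were 26.4, 36.8 and 42.5 CPM (CCR1/2), 17.1, 17.6, 14.5 and 9.25 CPM (CCR1) and 41.6, 36.4, 45.4 and 46.5 CPM (CCR2). The inflamed CCR1 libraries were the lowest. Emc10 (ENSMUSG00000008140), a subunit of the membrane protein insertase EMC, measured 122, 127, 128 and 143 CPM in resting CCR1/2 and 139, 155, 153 and 155 CPM in resting CCR2 libraries. Inflamed values were 2.98, 2.87 and 3.85 CPM (CCR1/2), 5.05, 5.14, 5.06 and 3.03 CPM (CCR1) and 4.28, 4.18, 6.16 and 4.25 CPM (CCR2). In inflamed mice the CCR1/2 libraries were all below the CCR2 libraries, and the CCR1 libraries overlapped both.

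In EMC another gene lay in the range of the 60. Emc6, which at 67.9 and 67.6 CPM at rest was too low for the rule, had a remaining level of 6.92%, and Emc8 had 23.3%. The other 5 EMC genes of at least 10 CPM, Emc7, Emc3, Emc4, Emc2 and Emc1, had 81.8, 124, 163, 174 and 484%. All 7 stay on the same side of 100% with TMM factors. Tmed2, a p24 cargo protein of early secretory vesicles, had a remaining level of 10.8%, and the 7 other p24 genes had 65.0% (Tmed5), 68.9% (Tmed7) and 114% (Tmed4) to 844% (Tmed3). For Tmed3 the inflamed CCR1 mean was 852 CPM, beside 109.3 and 111.6 CPM in inflamed CCR1/2 and CCR2 libraries. Ap1s2, the small sigma subunit of the AP-1 clathrin adaptor, had 12.3%, and the 4 other AP-1 genes followed had 154 to 286%.

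The remaining genes of this group were H13 (signal peptide peptidase), Saraf (a regulator of store-operated calcium entry), Rcn2 (a calcium-binding protein of the endoplasmic reticulum), Sumf1 (the activator of sulfatases), Man1a and Mgat2 (enzymes of N-glycan processing), Yipf4, Plekhf2, Stxbp6, Spg21, Gltp (a glycolipid transfer protein), Tmem9b and Mfsd14a. Their remaining levels ran from 5.08% for Rcn2 to 11.9% for Plekhf2.

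Respiratory chain subunits made up 3 of the 60. Uqcrfs1, the Rieske iron-sulfur protein of complex III, had 292, 300.1, 314 and 339 CPM in resting CCR1/2 and 272, 309, 285 and 288 CPM in resting CCR2 libraries. Inflamed values were 9.47, 11.4 and 11.7 CPM (CCR1/2), 9.06, 6.78, 6.03 and 5.50 CPM (CCR1) and 14.4, 12.1, 13.9 and 14.97 CPM (CCR2). All inflamed CCR1 libraries were below all other libraries for Uqcrfs1. Cyc1, cytochrome c1 of the same complex, went from 202 ± 3.66 and 171 ± 4.71 CPM at rest to 11.8 ± 1.94, 15.3 ± 3.47 and 13.6 ± 1.64 CPM in inflamed CCR1/2, CCR1 and CCR2 libraries.

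Cox5a (ENSMUSG00000000088), a nuclear-encoded subunit of complex IV, measured 137, 138, 139 and 143 CPM in resting CCR1/2 and 123, 126, 128 and 113 CPM in resting CCR2 libraries. Inflamed values were 2.71, 2.15 and 3.80 CPM (CCR1/2), 9.36, 8.11, 6.83 and 3.88 CPM (CCR1) and 6.34, 4.93, 4.26 and 5.66 CPM (CCR2). Inflamed CCR1/2 libraries were the lowest. The 7 other complex III genes of at least 10 CPM, mt-Cytb included, had remaining levels of 66.3 to 148%. The 10 other nuclear complex IV genes had 36.6 to 127%. For mt-Cytb, Uqcrc1 and Cox6b2 only the inflamed CCR1 mean was above the lower resting mean. With TMM factors Uqcr10 moves from 89.5 to 103% and Cox7a2 from 92.1 to 103%, and the others stay on their side of 100%. Every other subunit followed had a higher remaining level than Uqcrfs1, Cyc1 and Cox5a. All of these others except Cox6b2 had at least 100 CPM in both resting groups. The rule therefore fixed that they lie above its limit, though not by how much, and nothing is read from the direction.

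Receptors, transporters and signalling proteins were the last 12. Csf2ra (ENSMUSG00000059326), the alpha chain of the GM-CSF receptor, is the gene in the set whose ligand was in the pumps. It measured 715, 791, 701 and 708 CPM in resting CCR1/2 and 674, 748, 693 and 634 CPM in resting CCR2 libraries. Inflamed values were 26.1, 36.1 and 50.5 CPM (CCR1/2), 66.9, 52.8, 53.1 and 49.6 CPM (CCR1) and 46.4, 41.5, 48.3 and 52.1 CPM (CCR2). All inflamed libraries held under 1/8 of the lowest resting value. Csf2rb, the common beta chain that pairs with it, had 183.9 and 195.8 CPM at rest and 577.7, 200.7 and 497.2 CPM in inflamed CCR1/2, CCR1 and CCR2 libraries, and Csf2rb2, the beta chain specific for IL-3, had 17.7 and 22.4 CPM at rest and 105.1, 18.4 and 118.2 CPM. Both had their highest means in inflamed CCR1/2 and CCR2 libraries, and in the inflamed CCR1 libraries they were near their resting means.

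The other genes of this group included Slc1a5 (a glutamine transporter), Atp1b3, Ppp3r1 (the regulatory subunit of calcineurin), Fkbp1a (the FK506-binding protein FKBP12), Peli1 (a ubiquitin ligase in Toll-like receptor signalling), Ube2d2a (a ubiquitin-conjugating enzyme), Ndfip1 (an adaptor of NEDD4 ligases), Otulinl, Tpgs1 and N4bp2l1. Their remaining levels ran from 4.96% for Ndfip1 to 12.2% for Slc1a5. Of their partners and relatives, the calcineurin subunit Ppp3ca had 113%, and the Ube2d genes Ube2d1, Ube2d3 and Ube2d-ps had 17.6, 41.4 and 109%. For Ppp3ca the highest inflamed mean was that of the CCR1 libraries, 211.2 CPM. Inflamed CCR1/2 and CCR2 libraries held 110.9 and 75.5 CPM, below its resting means of 186.2 and 220.3 CPM.

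**Figure D4:**
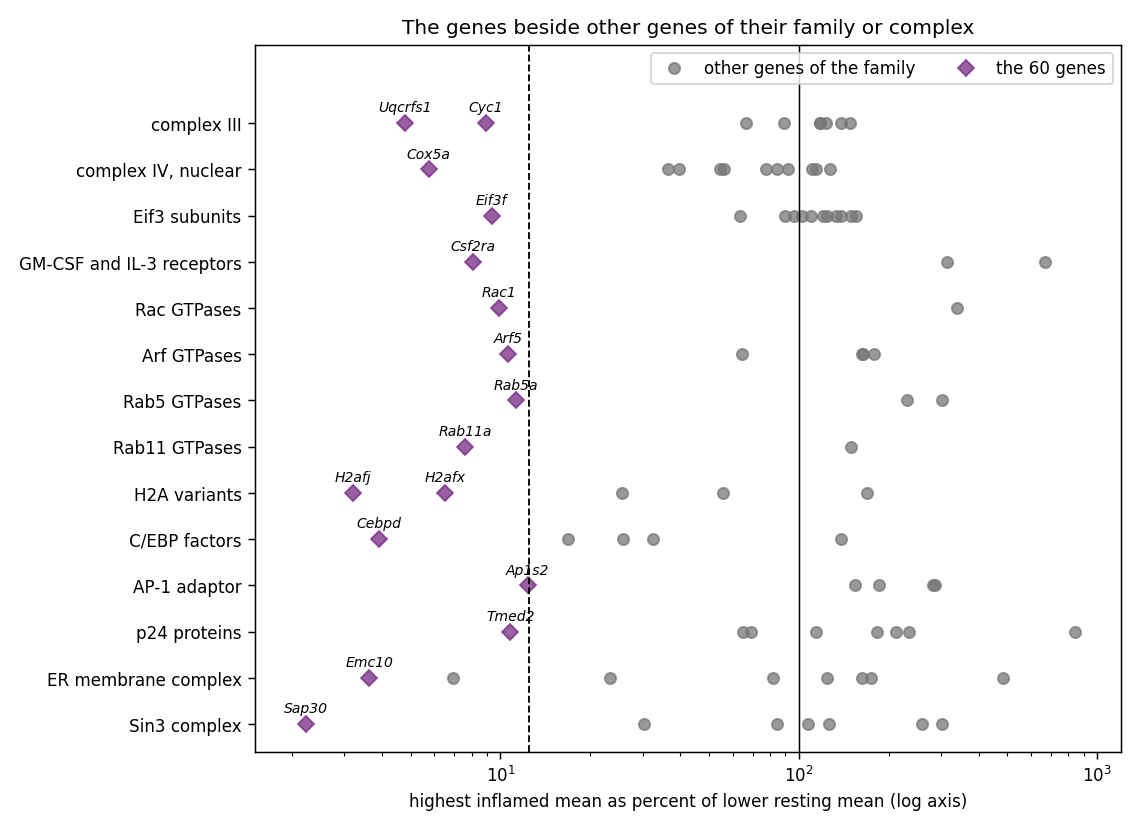
Highest inflamed mean as a percent of the lower resting mean (log axis) for genes of 14 families or complexes, diamonds for the 60 genes and circles for relatives of at least 10 CPM in both resting groups, with the dashed line at 1/8 and the solid line at 100%. Emc6 is the circle left of the dashed line.

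Over 23 families or complexes with at least 1 of the 60 genes, 80 other genes had at least 10 CPM in both resting groups. Their median remaining level was 118%, 49 were above 100%, 13 were below 50%, and 1, Emc6, was at 1/8 or less. With TMM factors 54 were above 100%. All 1937 abundant genes had a median of 119%. By the rule, relatives of at least 100 CPM in both resting groups lie above 1/8. In mt-Cytb, Uqcrc1, Cox6b2, Ypel5, Ppp3ca and Sin3a only the inflamed CCR1 mean was above the lower resting mean. In H2afv only the inflamed CCR1 mean was above 1/8 of the lower resting mean. The families were chosen after the values of the 60 genes were seen, so this is a description with no test. On functional lists, the 60 genes include none of the abundant genes on the lists of actin cytoskeleton (30 abundant genes), cytosolic ribosomal proteins (60), lysosome and endosome (28), proteasome (26), glycolysis (9), splicing and RNA binding (28), reference housekeeping (22), MHC class I presentation (10) and immediate early response (14). They include 2 of 29 translation factors, 2 of 32 genes of the endoplasmic reticulum and secretory pathway, 3 of 53 of oxidative phosphorylation, 3 of 23 of histones and chromatin, 3 of 31 signalling GTPases and 1 of 10 myeloid transcription factors, beside 3.10% of all abundant genes. The 10 names left out by the rule are on none of these lists, although some of them belong to the same classes of genes and 7 of the 10 meet the rule. Low counts on a list may come from leaving them out, so nothing is read from these counts.

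Levels can be compared between genes only per length. Per kilobase of exon, the lower resting mean was highest for Gm23935, at 7611 CPM per kb over its 57 bases. Rsrp1 came next at 395 CPM per kb, then Gltp at 272, H2afx at 271, Creg1 at 251 and Tram1 and Sap30 at 244 each. The lowest were Man1a at 12.3 and Ube2d2a at 13.7 CPM per kb. The value of Gm23935 rests on a very short annotation. Of the 8 genes with the most reads, Rsrp1, Creg1, Tram1 and Csf2ra (239 CPM per kb) were also among the 8 highest per length, while Dek was at 192, Vapa at 180.1, Rac1 at 167 and Eif5 at 84.0 CPM per kb.

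Gene structure was compared with other abundant genes, 1866 of which were in the annotation. Protein-coding genes made up 59 of the 60. The median exonic length was 2923 bases in the 60 genes and 4092 in the others, and the median number of exons was 6 and 9. Genes of a single exon made up 7 of the 60 (11.7%) and 34 of the others (1.82%). Among them were H2afj, H2afx, H1f0, Cebpd, Mgat2 and Gm23935. The 100 annotated genes with remaining levels between 1/8 and 1/4 had a median of 9 exons, and 2.00% of them had a single exon. Median GC content was 48.6% in the 60 and 48.4% in the other abundant genes. The 60 genes were spread over 19 chromosomes, with 7 on chromosome 9, the most on any. As a share of the abundant genes on a chromosome, the highest was 7.84% (4 of 51) on chromosome 18, and chromosome 9 had 6.48% (7 of 108).

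Overlap with neighbouring genes was also counted. Exons of another gene covered at least 10% of the exonic bases in 12 of the 60 genes (20.0%), beside 9.33% of the other abundant genes, and in 10 of the 12 the overlapping genes were all on the opposite strand. Daglb covers 51.4% of Rac1 and had 93.7 and 96.0 CPM at rest and 94.8, 120.0 and 104.3 CPM in inflamed CCR1/2, CCR1 and CCR2 libraries. Spidr covers 562 bases of Cebpd and went from 66.2 and 53.0 to 99.8, 82.9 and 83.8 CPM. Neither partner had an inflamed mean below its lower resting mean. Kdm1b, which covers 15.9% of Dek, went from 24.5 and 28.3 to 13.7, 14.8 and 14.7 CPM. Gcc1, which covers 16.4% of Arf5, went from 16.1 and 20.6 to 32.3, 29.6 and 39.1 CPM. Wdr92, on the same strand as Ppp3r1, covers 14.3% of it and went from 26.6 and 23.6 to 25.9, 21.6 and 28.4 CPM. Sla2, over 25.5% of Rab5if, stayed under 0.15 CPM in each group mean. Which strand was counted is not stated, so it is not known how reads in shared exons were counted.

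A near-identical stretch in a transcript of another gene, at least 200 bases at 95% identity or more, was found for 5 of the 60 genes (8.33%) and for 18.5% of the other abundant genes. Tmed2 shares 604 bases at 100% with the pseudogene Gm10698, which had 9.21 and 10.1 CPM at rest and 0.668, 0.488 and 0.653 CPM in inflamed CCR1/2, CCR1 and CCR2 libraries. Gm9762, which shares 423 bases at 100% with Ube2d2a, went from 2.89 and 4.47 to 0.460, 0.379 and 0.388 CPM. The copies of Ybx1 (Gm11560), Atp1b3 (Gm1848) and H2afx (Gm11336) each had under 3 CPM in every group mean. None of these copies had a higher mean in an inflamed group than at rest. The authors kept only reads that aligned to 1 place, so reads that fit a gene and its copy equally were counted for neither. Levels of the copies therefore cannot show what became of such reads, and nothing is concluded from them. With neither such an overlap nor a copy were 44 of the 60 genes (73.3%), beside 74.2% of the other abundant genes.

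Some library measures differed with state beside these genes. Genes detected per library averaged 19270 and 18850 in resting CCR1/2 and CCR2 libraries and 17410, 17490 and 17620 in inflamed CCR1/2, CCR1 and CCR2 libraries. The 100 most abundant genes took means of 25.4, 26.5, 29.7, 38.1 and 29.5% of reads in that order of groups, and cytosolic ribosomal protein genes 2.58, 2.23, 1.77, 1.66 and 1.81%. Mitochondrially encoded genes took 0.773, 0.458, 0.407, 0.504 and 0.474%. The part of these measures in the levels of the 60 genes was not tested.

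The rule did not compare populations with each other, but its limits hold for each group's mean and so restrict how the populations can differ. Without the limit on the inflamed CCR1 mean it would have chosen 75 genes, all 60 among them. Differences between populations within a state were tested over all 18652 genes, 60 of the 60 included, with edgeR's quasi-likelihood test and Benjamini-Hochberg adjustment. A gene was called at adjusted p below 0.05 and a log2 fold change of at least 1 in size. The comparisons share libraries, and each is given on its own. P-values measure the spread between samples, and the labels do not say that samples come from separate animals.

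In resting mice, which asks how the genes differ between CCR1/2 and CCR2 monocytes without inflammation, 1 of the 60 genes was called, beside 4.25% of all genes. It was Ypel3 (ENSMUSG00000042675), which had 114, 94.5, 96.5 and 108 CPM in CCR1/2 and 267, 259.9, 324 and 341 CPM in CCR2 libraries. Inflamed values were 1.47, 3.77 and 3.89 CPM (CCR1/2), 0.740, 0.177, 0.591 and 0.469 CPM (CCR1) and 4.03, 4.31, 5.81 and 6.42 CPM (CCR2). All 4 resting CCR1/2 libraries were below all 4 resting CCR2 libraries, and Ypel3 was lower in CCR1/2 by a log2 fold change of -1.59 (SE 0.12, adjusted p = 2.28e-05 by edgeR, range 4.64e-33 to 0.000194 over its alternatives). An exact permutation test of its mean log2 CPM gave p = 0.0286, the smallest that 70 permutations allow. Profiles of resting libraries with the same replicate number were alike, and with that number as a block the log2 fold change was -1.58 with an adjusted p of 4.25e-10, and again 1 of the 60 genes was called.

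Most of the 60 leaned the same way at rest. The log2 fold change of CCR1/2 against CCR2 was negative in 45 and positive in 15, with a median of -0.21, where the other abundant genes had 1107 negative and 760 positive and a median of -0.06. At adjusted p below 0.05 and any size, 18 of the 60 passed, beside 643 of the 1867 other abundant genes and 3149 of all 18652, among them H2afx, higher in CCR1/2 at 0.78, and Ybx1, lower at -0.61. In 28 of the 60 the 2 groups did not overlap, 8 higher and 20 lower in CCR1/2 (46.7%), beside 47.6% of the other abundant genes (470 higher, 418 lower) and 21.5% of all genes (2290 higher, 1723 lower). Overlap was judged on CPM, while the fold changes use TMM factors, which averaged 1.15 in resting CCR1/2 and 1.05 in resting CCR2 libraries. A share of 1 in 60 called is near the background and is not a result about the set.

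In inflamed mice none of the 60 was called by edgeR between CCR1/2 and CCR2, beside 0.145% of all genes. DESeq2 also called 0, and 11 of the 60 had an unadjusted p below 0.05, beside 259 of 1867 other abundant genes and 1675 of all 18652. The log2 fold change was negative in 55 of the 60 and positive in 5, with a median of -0.25. The other abundant genes had a median of 0.03, with 808 negative and 1059 positive. Groups did not overlap in 14 of the 60 (23.3%), all lower in CCR1/2, beside 12.6% of the other abundant genes (152 higher, 83 lower) and 9.46% of all genes (717 higher, 1047 lower). Cox5a had the largest size, -0.84 (SE 0.25, adjusted p = 0.299), and did not pass. The set as a list was not tested.

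Between inflamed CCR1 and inflamed CCR2 libraries 15 of the 60 genes were called (25%), beside 31.3% of all genes and 581 of 1867 other abundant genes. None was called higher in CCR1 by edgeR or DESeq2, beside 14.4% of all genes by edgeR, and 15 were lower, beside 16.8%. With each library left out in turn, edgeR called 13 to 18 of the 60. Without inflamed CCR1 replicate 4, or without inflamed CCR2 replicate 1, it called 1 of them higher. The rule's limit on the inflamed CCR1 mean keeps genes with high levels there out of the 60, so nothing is read from the direction. An unadjusted p below 0.05 was found for 33 of the 60, for 1395 of 1867 other abundant genes and for 9936 of all 18652. Of the other abundant genes 144 were called higher and 437 lower. The share called is near the background and is not a result about the set, and the difference in marker levels described above moves with it.

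Stxbp6 (ENSMUSG00000046314), a syntaxin-binding protein, had the largest difference. It measured 0.0871, 0.443, 0.211 and 0.298 CPM in inflamed CCR1 libraries, 10.5, 9.97 and 13.0 CPM in inflamed CCR1/2 and 12.0, 12.1, 16.6 and 13.3 CPM in inflamed CCR2 libraries. At rest it measured 116, 127, 130.0 and 140.4 CPM (CCR1/2) and 139.6, 160.5, 160.2 and 159 CPM (CCR2). The inflamed CCR1 libraries, 4 of 4, were below all others, with a log2 fold change of -5.66 against CCR2 (SE 0.32, adjusted p = 1.38e-10 by edgeR) and of -5.43 against CCR1/2 (SE 0.33, adjusted p = 1.09e-08). Over its alternatives the adjusted p against CCR2 ran from 2.72e-54 to 6.1e-09, and the exact permutation p was 0.0286, the smallest possible, in both comparisons. Otulinl (ENSMUSG00000056069) measured 4.62, 5.94, 5.82 and 5.16 CPM in inflamed CCR1, 19.6, 20.7 and 24.1 CPM in inflamed CCR1/2 and 27.8, 24.7, 28.1 and 31.9 CPM in inflamed CCR2 libraries, and -2.36 against CCR2 (SE 0.15, adjusted p = 1.09e-09). Its resting values were 502, 526, 505 and 501 CPM (CCR1/2) and 569, 597, 557 and 547 CPM (CCR2). For Otulinl too, 4 of 4 inflamed CCR1 libraries were below all others.

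Others called lower in inflamed CCR1 than in inflamed CCR2 included Ypel3 (-3.34), Sumf1 (-2.17), H1f0 (-2.10), Ap1s2 (-2.09), Fkbp1a (-1.87), Sap30 (-1.80), Creg1 (-1.53) and Rac1 (-1.24), all log2 fold changes, and H13, Uqcrfs1, Rcn2 and Gltp. Uqcrfs1, at -1, lies at the fold cutoff. With DESeq2, with RLE factors and with each of the other filters, 14 of the 60 were called in this comparison. In 31 of the 60 genes the 2 groups did not overlap, 4 higher and 27 lower in CCR1 (51.7%), beside 67.0% of the other abundant genes (365 higher, 886 lower) and 45.1% of all genes (3845 higher, 4565 lower).

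Between inflamed CCR1 and inflamed CCR1/2 libraries 15 of the 60 were called, beside 27.7% of all genes. Of these 3 were higher in CCR1, beside 13.2%, and 12 were lower, beside 14.6%, and here too the rule limits both means. Higher were Cox5a (log2 fold change 1.24, SE 0.30, adjusted p = 0.00369), Cebpd (1.16, SE 0.23, adjusted p = 0.000984) and H2afx (1.11, SE 0.19, adjusted p = 0.00032), each in 4 of 4 CCR1 libraries above all 3 CCR1/2 libraries. The exact permutation p of mean log2 CPM was 0.0571 for Cox5a and 0.0286, the smallest that 35 permutations allow, for Cebpd and for H2afx. Over their alternatives adjusted p ran from 4.61e-05 to 0.0488 for Cox5a, 6.12e-06 to 0.01 for Cebpd and 5.26e-07 to 0.00536 for H2afx. With replicate number as a block H2afx had 0.98 and lost the call by size. Groups did not overlap in 28 of the 60, 8 higher and 20 lower in CCR1 (46.7%), beside 70.3% of the other abundant genes (365 higher, 947 lower) and 47.4% of all genes (4280 higher, 4555 lower).

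**Figure D5:**
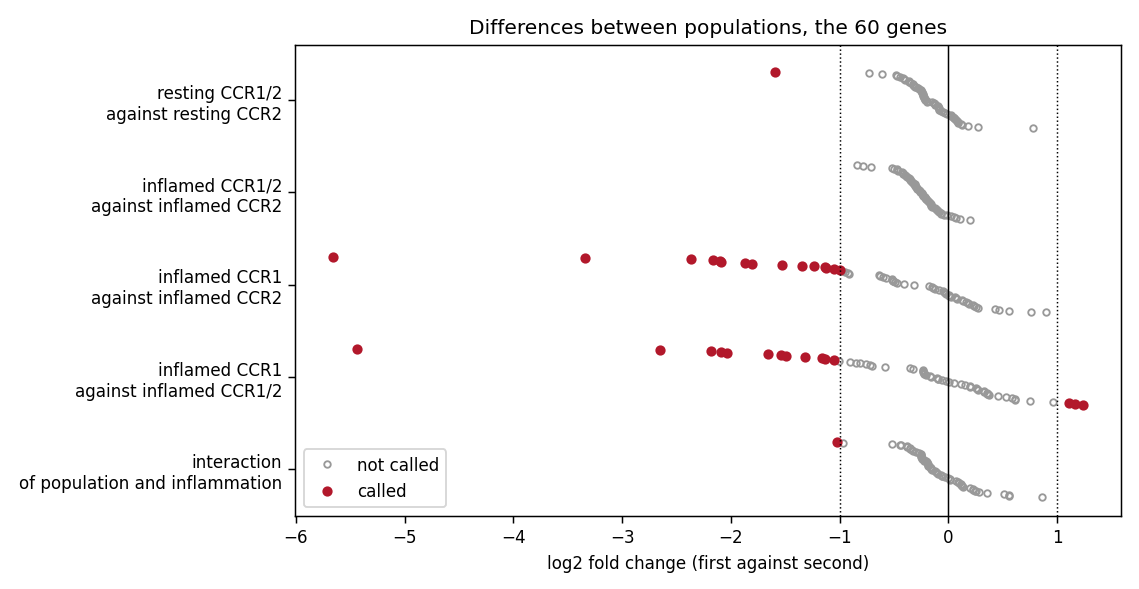
Log2 fold change of each of the 60 genes in 4 comparisons between populations and in the interaction, filled where called, with dotted lines at 1 and -1. Called genes number 1, 0, 15, 15 and 1 from top to bottom.

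The interaction asks whether the difference between CCR1/2 and CCR2 is of another size in inflamed than in resting mice, and uses the 15 libraries of those populations. Of the 60 genes 1 was called, H2afx, beside 0.214% of all genes. Its log2 difference was -1.03 (SE 0.22, adjusted p = 0.0497 by edgeR, range 0.00412 to 0.18 over its alternatives). In resting mice the lowest CCR1/2 library had 597 CPM and the highest CCR2 library 457 CPM, while in inflamed mice the 2 populations overlapped. The call depended on the settings: it was lost with DESeq2 (-0.97, adjusted p = 0.00412, by size), with RLE factors (-0.97, adjusted p = 0.0506), with all 19 libraries in 1 fit (-0.94, 0.0624) and with replicate number as a block (-0.88, 0.0281). It was also lost when any of 11 libraries was left out, with adjusted p of 0.0812, 0.0869 and 0.0862 without resting CCR1/2 replicates 2, 3 and 4, and 0.088, 0.0964 and 0.144 without resting CCR2 replicates 1, 3 and 4. Without inflamed CCR1/2 replicates 2 and 3 it was 0.0804 and 0.18, and without inflamed CCR2 replicates 1, 2 and 3 it was 0.0981, 0.0504 and 0.0572. Cox5a had -0.97 (SE 0.21, adjusted p = 0.0473), which misses the fold cutoff.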

How the data were processed

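The deposited table holds read counts per gene that the authors made with STAR 2.7.10a on GRCm38, without normalization; the strand counted is not stated. Of its 20 columns, 19 carry labelled samples and 1 was not used. No gene of chromosome 14 is in the table (0 of 2532 annotated), so none could be chosen, and chromosomes 15 to 19 are incomplete (genes present: 1593 of 1851, 1181 of 1607, 1712 of 2331, 896 of 1399 and 1090 of 1395). CPM used column totals. The genes and lists were chosen with earlier results of these data known, and families and partner genes after the values were seen. Of the 60 genes, 59 are named. Values in each library are given for the 8 with the highest lower resting mean and the 4 lowest remaining levels among the rest, and, for each comparison, for some of the called genes (up to 5 per direction by p). Uqcrfs1 was chosen after its values were seen. Tests used edgeR 4.0.16 (R 4.3.3; TMM factors, robust quasi-likelihood, two-sided) on the libraries of the groups compared, for the 18652 genes that averaged 1 read or more over 19 libraries. Alternatives were DESeq2 1.42.0, RLE factors, other filters, all 19 libraries in 1 fit, a replicate block, no fold cutoff and each library left out. To check pairing, profiles of samples with the same replicate number were correlated after group means were removed, over 11679 genes: 4 of 4 resting pairs exceeded 0.1 (0.244 to 0.457; other numbers -0.328 to 0.223), and 2 of 3, 3 of 4 and 1 of 3 pairs did in the inflamed comparisons (CCR1/2 with CCR2, CCR1 with CCR2, CCR1 with CCR1/2). Copies were sought with BLAST 2.17.0 among transcripts of other genes. The code was tested on simulated data.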

Additional observations from a re-analysis of the deposited data

Results flagged for a closer look

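In groups of 4 libraries, 1 library stood apart from the other 3 in 7 of 92 groups checked, which are 4 groups for each of 22 genes and 4 for the summed level of the 60; chance gives about 1 in 20 groups. Csf2ra was 790.8 CPM in resting CCR1/2 replicate 2, with the others at 700.9 to 715 CPM. Otulinl was 525.8 CPM in the same library, with the others at 501 to 505 CPM. Rab5if was 193.5 CPM in resting CCR1/2 replicate 4 (others 167 to 171 CPM). Stxbp6 was 139.6 CPM in resting CCR2 replicate 1 (others 159 to 160.5 CPM). Emc10 had 3 such values: 138.9 CPM in resting CCR2 replicate 1 (others 153 to 155 CPM), 3.03 CPM in inflamed CCR1 replicate 4 (others 5.05 to 5.14 CPM) and 6.16 CPM in inflamed CCR2 replicate 3 (others 4.18 to 4.28 CPM).

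For H2afx the interaction test of edgeR called an unequal difference between CCR1/2 and CCR2 at rest and in inflammation (log2 -1.03, adjusted p = 0.0497). The call was lost in 15 of 22 alternatives, among them DESeq2, RLE factors, all 19 libraries in 1 fit, the replicate block (-0.88) and 11 of the libraries left out in turn, so it does not hold across the settings tried.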

How the results depend on the processing

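The number of genes chosen moved with the rule: 37 with TMM factors, 36 with RLE factors, 160 at 1/4 and 16 at 1/16 in place of 1/8, 96 at 50 CPM and 29 at 200 CPM in place of 100, and 33 when the highest inflamed library was set against the lowest resting one. Leaving out each library in turn gave 57 to 65.

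With no fold cutoff, 18 of the 60 passed at rest (3149 of all 18652), 33 between inflamed CCR1 and CCR2 (8972), 26 between inflamed CCR1 and CCR1/2 (8061) and 2 in the interaction (74). The interaction gave 0 with DESeq2, RLE factors, all 19 libraries in 1 fit and the replicate block, and 0 to 2 with a library left out. With the replicate block the other comparisons gave 1, 0, 15 and 15. The cause of these changes was not tested. Of 224 alternatives for 15 results on single genes, 208 kept the call and its direction, 16, all for H2afx, lost it, and 0 reversed.

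Overlap with another gene was found for 25 of the 60 at 1 base or more, 1 at 50% of exonic bases, 1 on the same strand and 6 with protein-coding partners. Copies were found for 2 at 98% identity and 3 at 500 bases. Counts at low levels carry counting error, and the spread between the 3 or 4 libraries of a group is all that the tests measure.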
